A study of Mus musculus with 96 samples.

Results

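The ERVL and MaLR elements are 2 related groups of endogenous retroviruses with long terminal repeats (LTRs), and the table gives each repeat type 1 row that collects the reads of all its genomic copies. The rows described here were chosen by name alone, as those whose names start with MERVL, MT, ORR1 or MLT. This gave 119 of the 1217 repeat rows, beside 21711 gene rows and 8 spike-in rows. Of the 119 rows, 100 had a read in at least 1 well and 89 had at least 20 reads over the cell wells used. These 89 are called measured. The other 30 were all MLT1 or MLT2 rows, and 19 of them had no read in any well. A row could pass this minimum on the reads of 1 cell type alone, so every count over the measured rows is a description.

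MERVL is the coding ERVL of the mouse, with MERVL-int as its internal part and MT2_Mm as its LTR. It is transcribed in a burst in the 2-cell embryo, and rare mouse embryonic stem cells (ES cells) that re-enter a 2-cell-like state transcribe it again, together with genes such as those of the Zscan4 cluster. MT2A, MT2B and MT2C LTRs belong to related ERVL elements and MLT2 to older ones. The MaLR elements have no genes for their own movement. Their MT and ORR1 groups are found in rodents, with later letters in general marking older subfamilies, and MLT1 is an ancient group shared by other mammals. In mouse cells such elements are held silent by histone and DNA modifying enzymes and their cofactors.

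The data are read counts from a strand-retaining method that captures the start of transcripts, applied to single cells in 1 plate of 96 wells sequenced as 1 library. The plate held 48 ES cells of the R1 line, a mouse pluripotent line, 44 mouse embryonic fibroblasts (MEFs), which are connective tissue cells of the embryo, and 4 negative control wells. Neither cell type carried a labelled treatment or engineered allele, the MEFs were grown in DMEM with serum, and the ES cells followed a cited protocol for R1. The labels also name R1 as the source line of the MEF wells, which conflicts with their cell type, and wells were grouped by cell type. The labels name no separate cultures, so each type counts as 1 culture, wells are not replicates of it, and no p-value is given. ES cells filled plate columns 1 to 6 and MEFs columns 7 to 12, so plate side and cell type cannot be told apart. All 8 plate rows held wells of both types.

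Wells with at least 10000 gene reads were used, which left 45 ES cells and 44 MEFs. The median ES cell well held 161206 gene reads and the median MEF well 851801, against 3814.5 for negative control wells. The ES cell marker Pou5f1 averaged 731 counts per 1000000 gene reads (CPM) in ES cells and 2.59 CPM in MEFs. The fibroblast collagen gene Col1a1 averaged 76.4 CPM in ES cells and 1709 CPM in MEFs. In 11 of the 45 ES cell wells the summed MEF markers exceeded the summed ES cell markers, and 0 of the 44 MEF wells showed the reverse. The 11 are called rich in MEF markers below, by this comparison within each well and not by their MEF marker level. Values without those 11 wells are given for all rows together, for the MTA to MTE, ORR1 and MLT sums and wherever leaving them out moved a named ratio by over 1.5 times. Levels below are CPM from reads summed over a type, and each log2 ratio is ES cell over MEF. Brackets after a level hold its exact Poisson interval at the 95% level, which covers counting error only, and the SD of a log2 ratio is its spread over the 8 plate rows.

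The ERVL and MaLR rows together differed little between the types and varied widely among ES cells. They gave 37576 reads or 4309 CPM (4265 to 4353) in ES cells and 121718 reads or 3462 CPM (3443 to 3482) in MEFs. The log2 ratio was 0.32, smaller than its SD of 0.50, and ES cells were higher in 5 of 8 plate rows. Single ES cells held 722 CPM at the lowest, 4175 at the median and 31343 at the highest. The highest values lay in shallow wells. ES cell replicates 30, 2, 17 and 7 had 31343, 24754, 20588 and 16604 CPM over 18186, 16684, 36963 and 23428 gene reads. The next highest, ES cell replicate 29, had 11368 CPM over 157375 gene reads. Single MEFs held 1801, 3427 and 7391 CPM at the same points, so the MEF range lay inside the ES cell range. Negative control wells held 11 to 190 of these reads each, with a median of 34037 CPM over their few gene reads. Without the 11 ES cell wells rich in MEF markers the log2 ratio was 0.08.

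**Figure D1:**
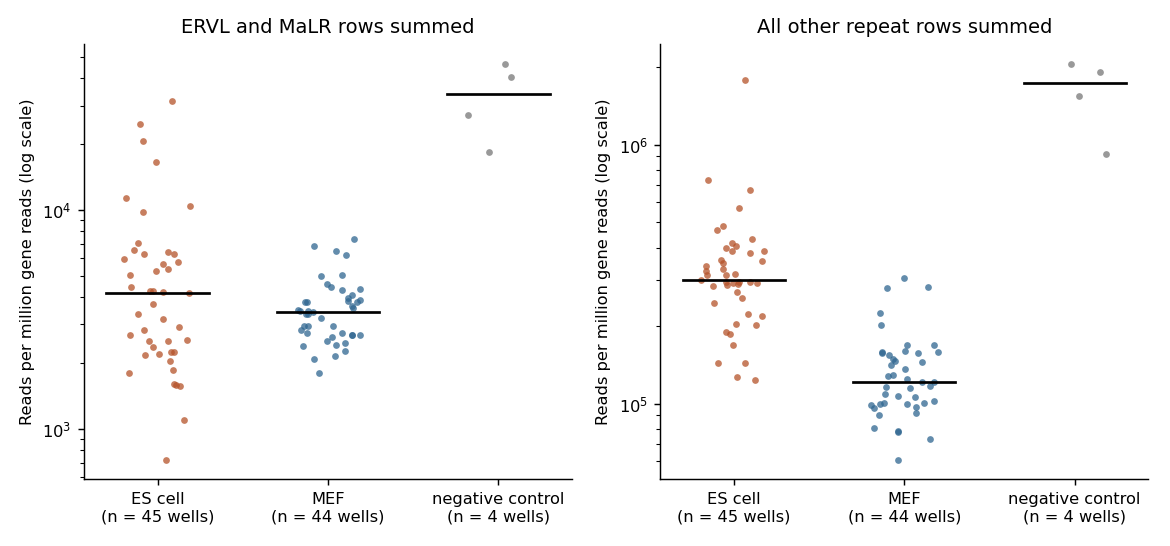
CPM in single wells (log axes) for the ERVL and MaLR rows summed (left) and all other repeat rows summed (right), in ES cells (n = 45), MEFs (n = 44) and negative control wells (n = 4). Points are wells and bars are medians: for ERVL and MaLR rows the medians are 4175 in ES cells and 3427 in MEFs, and for the other repeat rows 299086 in ES cells and 121018 in MEFs.

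Per gene read, other repeats differed more between the types. The 1098 other repeat rows had a log2 ratio of 1.24 (SD 0.35) and were higher in ES cells in 8 of 8 plate rows. The ratio was 1.71 for LINE-1 rows, 1.42 for SINE rows and 2.30 for the ERV1 and ERVK rows, the other retroviral classes. ERVL and MaLR rows therefore took 1.35% of repeat reads in ES cells and 2.52% in MEFs. The difference between the 2 log2 ratios, ERVL and MaLR minus other repeats, was −0.92 (SD 0.37) and lay below 0 in 8 of 8 plate rows. Against ERV1 and ERVK rows it was −1.98 (SD 0.37), again below 0 in 8 of 8. The library size cancels in such a difference, so it holds for any total used to scale a pooled sum. Which of the 2 lies further from equal does not: the log2 ratio of other repeats was −3.33 with spike-in reads and 0.02 with all repeat reads, against −4.25 and −0.90 for ERVL and MaLR rows.

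The direction of a single ratio does depend on that total. The median gene row had a log2 ratio of −1.48. Scaling by spike-in reads lowered every pooled log2 ratio by 4.56 and scaling by all repeat reads lowered it by 1.22. Leaving ribosomal protein genes out of the total raised it by 0.65. The ERVL and MaLR sum lay 1.79 above the median gene under each of these totals and 2.23 above it under median-of-ratios scaling. Every "higher in ES cells" below is per gene read. With spike-in scaling it turns to lower in ES cells for each row and subfamily named here except MLT1F-int and MLT2C1, and with repeat-read scaling it does so for log2 ratios under 1.22.

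Of the 89 measured rows, 24 (27%) were 2-fold or more higher in ES cells, against 16.2% of all 13600 measured gene and repeat rows. Another 21 (23.6%) were 2-fold or more higher in MEFs, against 57.3% of all measured rows, and 44 were within 2-fold. At 4-fold there were 9 in each direction, against 9.62% of all measured rows for ES cells and 39.9% for MEFs. Among the 693 other measured repeat rows, 29.6% were 2-fold or more higher in ES cells and 40% in MEFs. The median row had a log2 ratio of −0.05, beside −0.41 for other repeat rows and −1.48 for genes. These counts rest on the scaling: with spike-in reads 2 rows were higher in ES cells by that measure, against 86 in MEFs, and with all repeat reads 6 in ES cells, against 49 in MEFs.

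A stricter description asks for the same direction in 8 of 8 plate rows. This held for 6 of 89 rows (6.74%) as higher in ES cells, against 2.19% of all measured rows and 8.51% of other repeat rows. It held for 3 of 89 (3.37%) as higher in MEFs, against 15.2% of all measured rows and 6.78% of other repeat rows. The 6 were ORR1A1, ORR1A2, ORR1E-int, MTB_Mm-int, MTD-int and MLT1A0-int, and the 3 were MTEb, MLT1A1 and MLT1H-int. Those among them that the naming rule does not cover are ORR1A1, ORR1E-int, MTB_Mm-int, MTD-int and MLT1A0-int, which were chosen after their values were seen. A type with 0 reads in a plate row took the floor of 3 reads over its gene reads there. ES cells had fewer gene reads, so this floor tilts sparse rows to ES cells, and MTB_Mm-int had 25 reads in ES cells. MLT1H-int had 8 reads in 4 ES cells, so the floor stood in for ES cells in its other plate rows. MLT2C2, not measured, had 0 reads in ES cells and 2 in MEFs, yet scored as higher in ES cells in 2 of 2 plate rows.

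**Figure D2:**
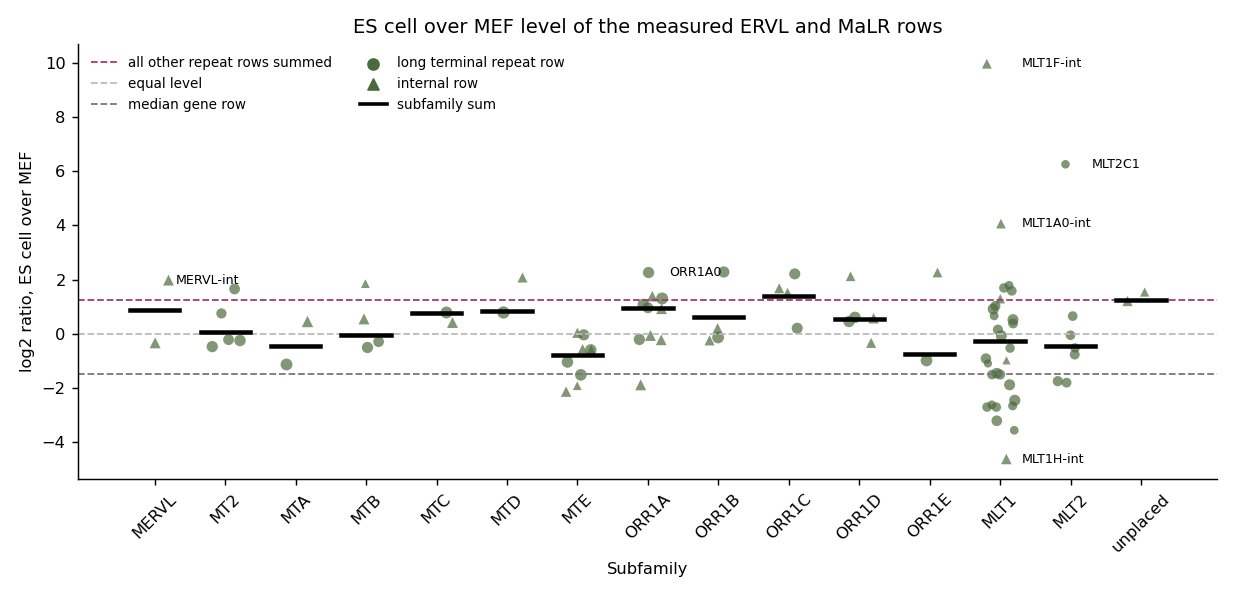
Log2 ratio, ES cell over MEF and per gene read, of the 89 measured rows by subfamily. Circles are LTR rows, triangles are internal rows, marker size grows with the log of the reads, and bars are subfamily sums. Dashed lines mark equal level, the median gene row at −1.48 and the other repeat rows summed at 1.24: the ORR1A bar sits at 0.96 and the MTE bar at −0.81, while single MLT1 rows run from −4.64 to 9.98. Spike-in scaling lowers every point by 4.56.

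Among ERVL rows, the internal part of MERVL was higher in ES cells and its LTR was not. MERVL-int had 667 reads or 76.5 CPM in ES cells and 683 reads or 19.4 CPM in MEFs, a log2 ratio of 1.98 with an SD of 2.90, so the plate rows spread wider than the difference. ES cells held 0 CPM at the lowest, 11.2 at the median and 1200 at the highest, and MEFs 0, 1.28 and 366 CPM. A single cell, ES cell replicate 20, gave 45.6% of the ES cell reads of MERVL-int, and without it the log2 ratio was 1.14. The internal row of the related element MERVL_2A had 31.3 CPM in ES cells and 39.7 CPM in MEFs, a log2 ratio of −0.34 (SD 1.43). Under median-of-ratios scaling, in which each well has its own factor and counts equally, MERVL-int was at 0.21 and MERVL_2A-int at 0.25, so the contrast between the 2 internal rows was gone and the direction of MERVL_2A-int turned. It also turned as a mean of per-well CPM, to 0.74, and after thinning to 20000 gene reads, to 0.53. Both internal rows summed gave 108 CPM (101 to 115) in ES cells and 59.1 CPM (56.6 to 61.7) in MEFs, with ES cells higher in 4 of 8 plate rows. Their log2 ratio of 0.87 (SD 1.73) became 0.27 without ES cell replicate 20.

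MT2_Mm, the LTR that drives MERVL, had 223 reads or 25.6 CPM in ES cells and 1050 reads or 29.9 CPM in MEFs. Its log2 ratio of −0.22 (SD 1.78) was 0.07 without MEF replicate 49 and −1.83 under median-of-ratios scaling. It was detected in 18 of 45 ES cells and 28 of 44 MEFs, with a highest well of 221 CPM in ES cells and 438 CPM in MEFs. MERVL-int was detected in 29 ES cells and 26 MEFs. The paired parts of MERVL did not mark the same wells throughout: 13 ES cells had both, 16 had MERVL-int alone, 5 had MT2_Mm alone and 11 had neither. In MEFs these counts were 19, 7, 9 and 9. MEF wells were deeper, and after each well was thinned to 20000 gene reads MERVL-int was found in 16 of 42 ES cells, against 10 of 44 MEFs. MT2_Mm was then found in 11 ES cells and 17 MEFs.

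Of the LTRs of related ERVL elements, MT2B2 was the one at least 2-fold apart. It had 57.5 CPM in ES cells and 18.3 CPM in MEFs, a log2 ratio of 1.65 (SD 2.12), with ES cells higher in 6 of 8 plate rows. MT2B gave the most reads and had 76.7 CPM in ES cells and 91.6 CPM in MEFs. Its log2 ratio was −0.26 as counted and −1.14 after subtraction of the mean negative control well, since 57 of its reads lay in those wells. It averaged 14.9 reads per ES cell well and 73.2 per MEF well, beside 14.25 per negative control well. The mean ES cell level of MT2B was thus close to that of wells without a cell. The value of −1.14 therefore depends on how wells below the subtracted mean are counted. Of these 57 reads, 54 lay in negative control replicate 94, so 1 well set most of the amount subtracted. MT2A had 49.5 CPM in ES cells and 69.2 CPM in MEFs, a log2 ratio of −0.48 (SD 1.55). MT2C_Mm had a log2 ratio of 0.75, but 62.3% of its ES cell reads came from ES cell replicate 33, without which it was −0.54. The 5 MT2 rows summed gave 226 CPM (216 to 236) in ES cells and 219 CPM (214 to 224) in MEFs. Every cell of both types had an MT2 read, but ES cells held as few as 1 read. Negative control wells held 2, 57, 1 and 0 MT2 reads, so a read in every well does not show MT2 RNA in every cell. The log2 ratio of 0.05 (SD 0.50) turned to −0.04 without ES cell replicate 27.

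Single wells with a high level were then sought, defined by at least 10 reads and at least 10 times the median of their type. For the MERVL rows 2 ES cells and 3 MEFs met this, and for the MT2 rows no cell of either type did. ES cell replicate 20 had 336 MERVL reads, which is 1326 CPM (1188 to 1476) and 25.9 times the ES cell median of 51.1 CPM. These were 304 reads of MERVL-int and 32 of MERVL_2A-int, beside 21 of MT2_Mm. ES cell replicate 30 had 605 CPM, from 11 reads in a well of 18186 gene reads, and its MEF markers exceeded its ES cell markers. MEF replicates 50, 55 and 80 had 378, 256 and 260 CPM, from 63, 213 and 41 reads, against a MEF median of 23.1 CPM. They had 0 reads of MT2_Mm. At 5 times the median 6 ES cells and 11 MEFs passed, and at 20 times ES cell replicate 20 alone.

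**Figure D3:**
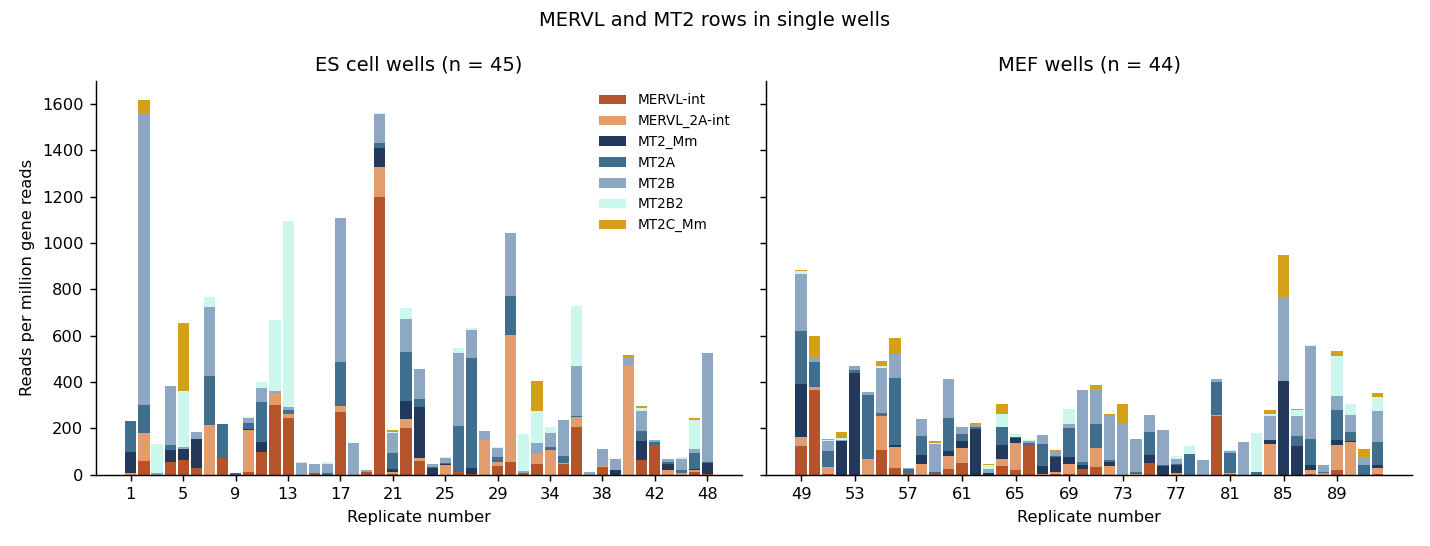
CPM of the 2 MERVL internal rows and the 5 MT2 rows in each ES cell well (left, n = 45) and each MEF well (right, n = 44), stacked in order of replicate number. ES cell replicate 20 stands out by MERVL-int at 1200, and the tall MT2B bar of ES cell replicate 2 rests on a well of 16684 gene reads.

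ES cell replicate 20 was not a shallow well, nor one without ES cell markers. It held 253371 gene reads, 3478 detected genes and 0 reads of every gene of the 2-cell-like list in the table. Pou5f1 had 65 reads (257 CPM, against an ES cell median of 608 CPM), Sox2 had 217 reads and Zfp42 had 87 reads (343 CPM, against a median of 194 CPM). Its other repeat rows were ordinary, with 1.17 times the ES cell median. Several MaLR groups were high in it: MTA rows were highest of all 45 ES cells, at 856 CPM and 7.14 times the median. MLT1 rows were also highest, at 2112 CPM and 12.8 times the median, mainly from 383 reads of MLT1D. MTC rows ranked 2 at 1930 CPM. ORR1A rows, at 730 CPM, and ORR1E rows, at 23.7 CPM, lay below their ES cell medians of 852 and 52.2 CPM.

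Genes of the 2-cell-like state were nearly absent from the plate. Of 37 listed genes 26 had a row in the table and 3 had a read in a cell. The 6 Zscan4 rows had 0 reads in all wells, which allows each a pooled level of up to 0.423 CPM in ES cells by the exact Poisson interval. Zfp352, Dux, a transcription factor that activates MERVL, and Tdpoz1 to Tdpoz5 were likewise at 0 reads. Gm8300 was the one measured member, with 19 reads in ES cells, against 7 in MEFs, and 17 of its ES cell reads came from ES cell replicate 14. MEF replicate 92 alone held those 7 reads and all 18 MEF reads of the list. No listed gene had a read in the 5 wells with high MERVL.

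The MaLR elements of the ORR1 group were higher in ES cells, as a group and in most subfamilies. All 25 ORR1 rows were measured, and 10 (40%) were 2-fold or more higher in ES cells, 1 (4%) in MEFs and 14 in neither. Over other repeat rows these shares were 29.6% and 40%, and over all measured rows 16.2% and 57.3%. Their sum was 1887 CPM (1859 to 1916) in ES cells and 1148 CPM (1136 to 1159) in MEFs, a log2 ratio of 0.72 (SD 0.40), with ES cells higher in 8 of 8 plate rows per gene read and lower under spike-in or repeat-read scaling. ORR1A, the youngest subfamily, had 984 CPM in ES cells and 507 CPM in MEFs, a log2 ratio of 0.96 (SD 0.44) and 8 of 8 plate rows. ORR1C had 211 CPM in ES cells and 80.98 CPM in MEFs, a log2 ratio of 1.38 (SD 1.07) and 7 of 8. ORR1B was at 0.60 (SD 0.84) and ORR1D at 0.54 (SD 0.84), each higher in ES cells in 6 of 8. ORR1E went the other way, with 93.9 CPM in ES cells and 158 CPM in MEFs, a log2 ratio of −0.75 (SD 1.49). Without the 11 ES cell wells rich in MEF markers the sums were at 0.85 for ORR1A, 0.61 for ORR1B, 1.15 for ORR1C, 0.42 for ORR1D and −1.18 for ORR1E.

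ORR1A2 was the most evenly spread member in ES cells. It had 3774 reads or 433 CPM in ES cells and 6184 reads or 176 CPM in MEFs, and was found in 45 of 45 ES cells and 43 of 44 MEFs. Single ES cells had a median of 332 CPM and a highest of 6293 CPM, and single MEFs a median of 149 and a highest of 1131 CPM. The ranges overlapped, and the top ES cell held 8.48% of its ES cell reads. Its log2 ratio of 1.30 (SD 0.87) was 1.14 after subtraction of the negative control wells, which held 107 of its reads, and 1.00 without the 11 ES cell wells rich in MEF markers. ORR1A1 was at 0.96 (SD 0.58), from 59.4 CPM in ES cells and 30.6 CPM in MEFs.

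The largest ORR1 ratios were close to each other and differed in how the reads were spread. ORR1E-int had 129 reads or 14.8 CPM in ES cells and 107 reads or 3.04 CPM in MEFs, a log2 ratio of 2.28 (SD 1.89) with ES cells higher in 8 of 8 plate rows. It was found in 32 ES cells, and its top well held 12.4% of its ES cell reads. The LTR row ORR1A0 had 167 CPM in ES cells and 34.96 CPM in MEFs, a log2 ratio of 2.26 (SD 2.26), and was found in 28 ES cells and 33 MEFs. ORR1B2 had 168 CPM in ES cells and 34.7 CPM in MEFs, a log2 ratio of 2.28 (SD 2.72). For ORR1A0 and ORR1B2, ES cells were higher in 6 of 8 plate rows, and the SD was at least as large as the ratio. ORR1C1 was at 2.21 (SD 2.58) with ES cells higher in 4 of 8 plate rows, and at 1.60 without ES cell replicate 9, which held 35.2% of its ES cell reads. ORR1B1 was close to equal, at −0.14 (SD 1.04), and ORR1E had 79.1 CPM in ES cells and 155 CPM in MEFs. ORR1D1 was at 0.60 and, without ES cell replicate 17, at 0.07.

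The MT group of MaLR elements divided by subfamily. Of the 19 measured MTA to MTE rows, 2 (10.5%) were 2-fold or more higher in ES cells, 5 (26.3%) in MEFs and 12 in neither, beside the 16.2% and 57.3% of all measured rows. MTE, the oldest subfamily, had 330 CPM (318 to 342) in ES cells and 578 CPM (570 to 586) in MEFs, a log2 ratio of −0.81 (SD 0.71), and MEFs were higher in 8 of 8 plate rows. That direction was the same under all 5 scalings. Spike-in and repeat-read totals lower every pooled ratio, so they could not have turned it. The total without ribosomal protein genes raises each ratio by 0.65 and brought MTE closer to equal. MTEb was at −1.05 (SD 1.71) with MEFs higher in 8 of 8, MTE2a at −1.52 (SD 1.46), MTEa at −0.60 and MTE-int at −0.64. MTE2a had 46.2 CPM in ES cells and 133 CPM in MEFs, with well medians of 10.3 CPM in ES cells and 92.7 CPM in MEFs. MTA was at −0.47 (SD 0.70) and MTB at −0.06 (SD 0.98). MTA_Mm, the LTR of the youngest subfamily, had 88.99 CPM in ES cells and 195 CPM in MEFs, a log2 ratio of −1.13 (SD 1.13), while its internal row MTA_Mm-int was at 0.48 (SD 0.58). MTB had a log2 ratio of −0.51 as a single LTR row. Without the 11 ES cell wells rich in MEF markers the sums were at −0.66 for MTA, −0.48 for MTB and −1.13 for MTE.

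MTD and MTC pointed to ES cells, but through few wells. MTD had the most reads of all members, 5754 in ES cells and 13252 in MEFs, which is 660 CPM in ES cells and 377 CPM in MEFs and a log2 ratio of 0.81 (SD 1.11). The well medians ran the other way, at 204 CPM in ES cells and 288 CPM in MEFs. ES cell replicate 29 held 20.4% of the ES cell reads of MTD, and in ES cell replicate 30 MTD reached 22710 CPM. Both lie among the 11 ES cell wells rich in MEF markers, and without those 11 the log2 ratio was 0.05. MTC had 317 CPM in ES cells and 182 CPM in MEFs, a log2 ratio of 0.80 (SD 1.38), with nearly equal well medians of 150 CPM in ES cells and 149 CPM in MEFs. Without those 11 wells the sums were at 0.48 for MTC and 0.08 for MTD.

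ORR1 and MT groups differed in their ES cell over MEF ratio in most but not all plate rows. For each MTA to MTE read there were 1.12 ORR1 reads in ES cells and 0.73 in MEFs, a difference of 0.61 in log2 ratio (SD 0.75) that was above 0 in 6 of 8 plate rows. ORR1A against MTE separated further, with 2.98 ORR1A reads for each MTE read in ES cells and 0.88 in MEFs. That difference of 1.76 (SD 0.85) was above 0 in 8 of 8 plate rows and ran from 1.69 to 1.91 as single wells were left out. Both pairs were chosen after their values were seen.

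The ancient MLT rows were sparse and scattered in both directions. Of 56 MLT1 rows 29 were measured, and 7 (24.1%) were 2-fold or more higher in ES cells, 13 (44.8%) in MEFs and 9 in neither. Over other repeat rows the shares were 29.6% and 40%, and over all measured rows 16.2% and 57.3%. Their sum was 342 CPM in ES cells and 413 CPM in MEFs, a log2 ratio of −0.27 (SD 0.91), and −0.51 without the 11 ES cell wells rich in MEF markers. Among members with at least 100 reads, MLT1A1, MLT1H-int, MLT1J and MLT1K had the 4 lowest ratios once 10 CPM was added to both types, and their ratios as counted follow. Rows with fewer ES cell reads also lay far towards MEFs as counted, such as MLT1E1A at −3.57 from 1 read in ES cells and 48 in MEFs, with a counting interval from −8.91 to −1.03, chosen after its values were seen. MLT1A1 had 117 reads or 13.4 CPM in ES cells and 2607 reads or 74.2 CPM in MEFs, a log2 ratio of −2.47 (SD 1.89), and was found in 10 ES cells and 36 MEFs. MLT1H-int had 8 reads or 0.92 CPM in ES cells and 802 reads or 22.8 CPM in MEFs, a log2 ratio of −4.64 (SD 1.10). Those 8 reads lay in 4 ES cells, so the floor of 3 reads stood in for ES cells in plate rows without one. Its SD is therefore not a measured spread of ES cells. ES cell replicate 26 held 5 of the 8 reads, and without it the log2 ratio was −6.04. MLT1J was at −3.22 (SD 2.74), and at −4.43 without ES cell replicate 45 or −2.61 without MEF replicate 89. MLT1K was at −1.89 (SD 1.49), at −2.55 without ES cell replicate 10 and at −2.67 without the 11 ES cell wells rich in MEF markers. MLT1A1 was at −3.28 without ES cell replicate 43.

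MLT1A0-int, an internal row, was higher in ES cells in 8 of 8 plate rows. It had 162 reads or 18.6 CPM in ES cells and 39 reads or 1.11 CPM in MEFs, and was found in 36 of 45 ES cells and 16 of 44 MEFs, or in 11 of 42 and 0 of 44 after thinning, where 0 of 44 allows a share of up to 6.82%. Its log2 ratio was 4.07 (SD 1.21), and 1.36 with 10 CPM added. It averaged 3.6 reads per well in ES cells and 0.886 in MEFs, beside 1.75 in negative control wells from 7 reads, so its MEF reads did not exceed those of wells without a cell. Of the 41 measured rows with a read in a negative control well, it was the 1 for which this held in MEFs, and there was none in ES cells. After subtraction of the mean negative control well the log2 ratio came out at 4.66. The mean MEF level lay below the amount subtracted, so this value is not a measured ratio. The largest ratio of any member, 9.98 for MLT1F-int, rested on 250 reads in ES cells and 1 in MEFs, with a counting interval of the log2 ratio from 7.49 to 15.3. ES cell replicate 23 held 93.2% of those 250 reads, and without it the log2 ratio was 6.15. The 10 MLT2 rows summed to 29.1 CPM in ES cells and 39.8 CPM in MEFs, a log2 ratio of −0.45 (SD 1.80), and −1.055 without the 11 ES cell wells. Of the 7 measured, MLT2B4 had the most reads and a log2 ratio of −1.76, and MEF replicate 51 held 69.3% of its MEF reads. Without that well its ratio was −0.11, and without ES cell replicate 3 it was −3.61. MLT2C1, chosen after its values were seen, had 38 reads in ES cells, against 2 in MEFs, and 89.5% of the 38 came from ES cell replicate 22. MLT-int and MT-int, whose names give no subfamily, had 191 and 41 reads in ES cells and 334 and 57 in MEFs. MLT-int was at 1.20, and at 0.36 without ES cell replicate 47.

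The internal part of an element and its LTR often differed in their ES cell to MEF ratio. Over the measured rows, 13 of 32 internal rows (40.6%) were 2-fold or more higher in ES cells and 4 (12.5%) in MEFs, while 11 of 57 LTR rows (19.3%) were higher in ES cells and 17 (29.8%) in MEFs. The shares over all measured rows were 16.2% for ES cells, close to that of LTR rows, and 57.3% for MEFs. Summed over all rows there was no such split: there were 0.235 internal reads for each LTR read in ES cells and 0.237 in MEFs. Among 26 elements with both parts measured and read in both types, the internal row had the higher ES cell over MEF ratio in 16. Per length, the LTR row had more CPM per Mb of its genomic copies than the internal row in 16 of the 26 in ES cells and 17 in MEFs. For MERVL these densities were 21.6 CPM per Mb for MT2_Mm and 18.1 for MERVL-int in ES cells, and 25.2 and 4.59 in MEFs. For ORR1A0 the LTR had 246 CPM per Mb in ES cells and 51.5 in MEFs, and the internal row 39.8 in ES cells and 46.7 in MEFs. For ORR1E the internal row was denser in ES cells, at 20.6 against 12.4 CPM per Mb for the LTR, and sparser in MEFs, at 4.23 against 24.2. ORR1E-int, at 2.28, and MTD-int, at 2.10 (SD 1.08), both had ES cells higher in 8 of 8 plate rows, and MTB_Mm-int was at 1.85 (SD 1.46) from 25 reads in ES cells and 28 in MEFs.

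**Figure D4:**
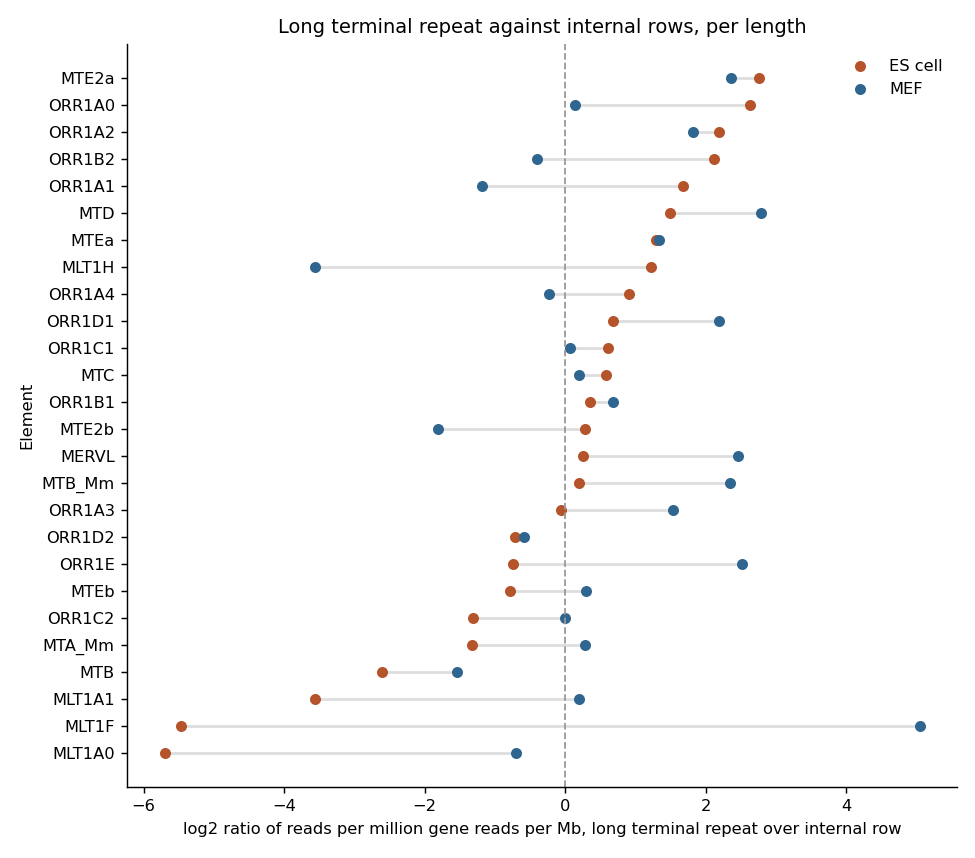
Log2 ratio of CPM per Mb of genomic copies, LTR over internal row, for the 26 elements in which both rows had reads in both cell types. Points right of 0 mark elements with a denser LTR. For MERVL the value is 0.26 in ES cells and 2.46 in MEFs, and for ORR1A0 it is 2.63 in ES cells and 0.14 in MEFs.

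The read number of a row followed the amount of that repeat in the genome. Across the 89 measured rows, which share their libraries, total reads and summed genomic length had a Spearman rho of 0.86, and log2 CPM in ES cells and in MEFs had a Pearson r of 0.79. The ES cell over MEF ratio had a rho of 0.07 with length. All rows together had 32.6 CPM per Mb in ES cells and 26.2 in MEFs, against 317 in ES cells and 135 in MEFs for the other repeat rows. The densest rows were not the most abundant ones. In ES cells MLT1F-int had 269 and MLT1A0-int 253 CPM per Mb, and in MEFs MLT1H-int had 260.

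The leading row varied from cell to cell. In ES cells the leading row held 13.1% of the ERVL and MaLR reads of a well at the lowest, 23.8% at the median and 72.5% at the highest. In MEFs it held 7.24%, 14.5% and 62.7% at the same points. ORR1A2 led in 9 ES cells and 2 MEFs, MTD in 8 ES cells and 15 MEFs, and MTE2a in 4 MEFs. MTD led in ES cell replicate 30, with 413 of 570 reads, and ORR1B1 led in MEF replicate 73, with 1776 of 2832 reads. ORR1D1 reached 8008 CPM in ES cell replicate 17. Among rows with at least 100 reads in a type, the top well held a median of 23.3% of the reads over 52 rows in ES cells and 20.4% over 74 rows in MEFs. Over 50% lay in 1 well for 5 rows in ES cells and 3 in MEFs. ORR1A2 and MTD had a read in every ES cell.

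**Figure D5:**
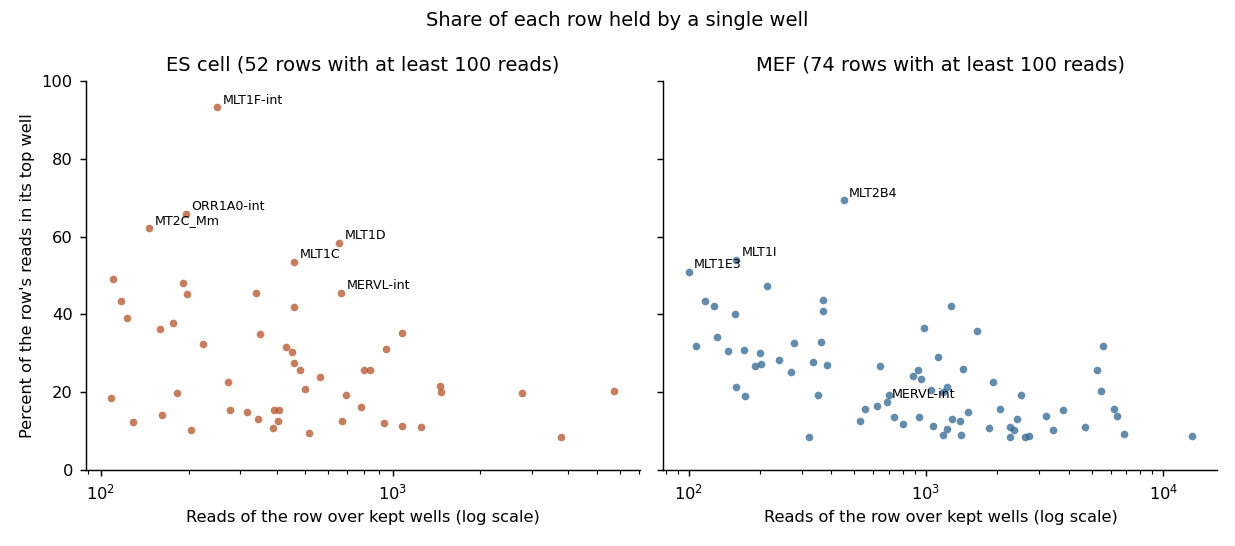
Percent of the reads of each row that its top well held, against the reads of the row (log axis), for rows with at least 100 reads in ES cells (left, 52 rows) and MEFs (right, 74 rows). MLT1F-int stands highest in ES cells at 93.2% and MLT2B4 in MEFs at 69.3%, while ORR1A2 is at 8.48% in ES cells.

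Across the 45 ES cells, the ERVL and MaLR level moved with MEF marker level, with a Pearson r of 0.65 and a Spearman rho of 0.61. Both share the gene read total as divisor. Against gene reads themselves r was −0.40 and rho −0.16. In MEFs the values were 0.14 and 0.17 against MEF markers and −0.13 and −0.08 against gene reads. The part of MEF marker RNA in the ES cell values was not tested. The 5 gene rows whose level over ES cells was most like MERVL plus MT2 were Rplp1, Eif5, Spnb2, Ak1 and Myo10, with r of 0.60, 0.55, 0.53, 0.53 and 0.53 over 45 wells, out of 5388 rows compared. These are descriptions, since all points share depth.

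The genes that silence ERVL elements or act on them were given alongside. Of 16 listed factors, all measured, 8 were 2-fold or more higher in ES cells, 5 in MEFs and 3 in neither, beside 15.4% of all 12818 measured gene rows higher in ES cells and 58.5% in MEFs. Some of the 8 were sparse or uneven. Dppa2 was read in 2 ES cells and Chaf1a in 3, and Setdb1 was higher in ES cells in 4 of 8 plate rows. Zfp42 is also among the ES cell markers used here. Of the 5, Rcor1 had 3 reads in ES cells. Zfp42 (Rex1), a zinc finger protein of ES cells that binds MERVL-type repeats, had 317 CPM in ES cells and 1.82 CPM in MEFs. Rif1, a chromatin and replication timing protein, had 136 CPM in ES cells and 15.3 CPM in MEFs. Trim28, the corepressor that brings histone methylation to retroviral sequence, had 143 CPM in ES cells and 82.5 CPM in MEFs. Kdm1a, a histone demethylase whose loss raises MERVL in mouse ES cells, had 41.9 CPM in ES cells and 115 CPM in MEFs, with a log2 ratio of −1.46. The histone methyltransferase Ehmt2 and the histone deacetylase Hdac2 were also higher in MEFs, at log2 ratios of −1.97 and −1.80. Dnmt1, the maintenance DNA methyltransferase, had 79.01 CPM in ES cells and 59.2 CPM in MEFs. Their part in the repeat levels was not tested.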

How the data were processed

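The authors deposited raw read counts for each well, with 1 row per gene, spike-in or repeat type and no normalisation. Per the file headers, barcodes, leading Gs and trailing As were trimmed, low-quality and short reads were dropped, and repeat rows count hits on both strands grouped by type. The deposited length column, in other units (bases), gives the total genomic length of each repeat type. Bowtie was the aligner named in the submitters' processing notes. Its version and the genome build are not given in the sources used here. Reads without molecular identifiers can be PCR copies. A read that fits several copies or related types cannot be placed, so closely related rows such as MT2A and MT2B, or an LTR and its internal row, are uncertain.

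Counts were summed over wells with at least 10000 gene reads (45 ES cells, 44 MEFs), divided by the gene reads and given as CPM, with exact Poisson intervals at the 95% level (Python 3.11.15, numpy 2.4.6, pandas 2.3.3, scipy 1.17.1). Where a group, or a type within a plate row, had 0 reads, 3 reads stood in as the floor. Gene reads per kept well ran from 13576 to 703423 in ES cells and 63938 to 1883709 in MEFs. Rows were measured with at least 20 reads. No 2 wells held identical values. The ratio was tested on simulated data. Alternatives were other totals, other well minimums, thinning to 20000 gene reads, 10 CPM added and subtraction of the mean negative control well. Further alternatives were plate rows A to D or E to H alone, the mean over plate rows and leaving out single wells.

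The members and lists were chosen with earlier results of these data known. Named rows were all measured MERVL and MT2 rows, the row with most reads of each other subfamily, the 12 with most reads, and the 4 highest and 4 lowest ratios with 10 CPM added among rows with at least 100 reads. Up to 8 genes of the 2-cell-like list, up to 6 silencing factors by reads and the 5 gene rows most like MERVL plus MT2 were also to be named. Of the silencing factors Rif1, Setdb1, Chaf1a, Dppa2 and Rcor1 were named outside this rule, after their values were seen.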

Additional observations from a re-analysis of the deposited data

Results flagged for a closer look

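The MT2 reads of the 4 negative control wells were 2, 57, 1 and 0, and the well with 57, negative control replicate 94, stood farther from the others than the critical value of Dixon's test for 4 samples, with a ratio of gap to range of 0.965. Of its reads 54 were MT2B. This was 1 of 5 sets of rows tested over these wells, and chance flags about 1 in 20 groups.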

How the results depend on the processing

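With spike-in reads as total, the log2 ratio was −4.25 for all ERVL and MaLR rows, −3.70 for MERVL and −4.52 for MT2. Spike-in scaling also turned ORR1C to −3.18, the 2 rows with no subfamily to −3.30, MERVL-int to −2.59, MT2B2 to −2.91, ORR1A2 to −3.26, ORR1C1 to −2.35, MLT-int to −3.36, ORR1A0 to −2.30, ORR1B2 to −2.28, MTD-int to −2.46, ORR1E-int to −2.28, MTB_Mm-int to −2.71 and MLT1A0-int to −0.50. All repeat reads as total gave −0.90 for all rows, −1.17 for MT2 and −0.014 for MLT-int. Gene reads without ribosomal protein genes gave 0.96 for all rows and 0.69 for MT2. Median of ratios gave −0.48 for MT2, −0.22 for the rows with no subfamily and −0.41 for MLT-int. Plate rows A to D gave −3.11 for the rows with no subfamily and −5.23 for MLT-int, and plate rows E to H gave 3.02 for MLT2B4. The cause of these shifts was not tested, apart from the change of total itself.

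Rows at least 2-fold higher in ES cells numbered 2 with spike-in reads, 40 without ribosomal protein genes, 6 with repeat reads and 9 with 10 CPM added, against 24. Those higher in MEFs numbered 86, 32 with median of ratios, 49 with repeat reads, 11 after thinning to 20000 gene reads and 7 with 10 CPM added, against 21. At 4-fold there were 9 each. High MERVL wells numbered 6, 1 and 4 in ES cells at 5 and 20 times the median and with spike-in reads, and 11 and 0 in MEFs at 5 and 20 times. High MT2 wells numbered 1 in ES cells at 5 times the median and 1 with no minimum of gene reads. In MEFs there was 1 at 5 times and 1 with spike-in reads. For MERVL and MT2 summed there were 2 ES cells at 5 times, 1 with spike-in reads and 1 with no minimum. Leaving out single wells moved the log2 ratio of all rows between 0.24 and 0.38. Leaving out the 11 ES cell wells rich in MEF markers, an alternative chosen after the data were seen, turned none of the 51 log2 ratios. Some alternatives kept fewer directions: 24 of 51 with spike-in reads, 36 with all repeat reads, 39 without ribosomal protein genes and 43 in plate rows E to H. The mean of per-well CPM kept 44, thinning and median of ratios kept 45 each, and the remaining alternatives kept 47 to 51. No paired analysis was possible because the replicate numbers of ES cells and MEFs do not overlap, so that wells could be matched by plate row alone. The mean of the 8 plate-row log2 ratios, also chosen after the data were seen, had the same sign as the pooled value in 48 of 51 results, and turned to 0.27 for MLT2B4, −0.52 for MT2C_Mm and 0.15 for ORR1B1. MLT2B4 had a read in 5 ES cells, so the floor of 3 reads stood in for ES cells in plate rows without one. MT2C_Mm had a read in 8 ES cells and none in those of plate rows C, D and F, where the floor stood in too. The turn of MLT2B4 is therefore not a measured difference, and that of MT2C_Mm rests in part on the floor. Depth limits most rows: 52 of 119 had 100 reads or more in ES cells.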

Other observations

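The 3 ES cell wells under the minimum of gene reads, replicates 32, 44 and 46, held 72, 289 and 46 ERVL and MaLR reads beside 4136, 9327 and 1641 gene reads. That is 17408, 30985 and 28032 CPM, near the level of the negative control wells.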
